A study of Mus musculus with 6 samples.

Results

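The interferon response genes are 40 mouse genes that interferons are known to switch on in many cell types. They were listed by symbol, with no threshold on their values and with earlier results of these data known, and were matched to the gene identifiers of the count tables. All 40 were among the 49315 genes counted, and all 40 were among the 12838 genes kept because at least 1 library had at least 2 CPM and at least 10 counts. Levels are counts scaled for library depth and composition with the TMM method of edgeR and given as CPM, written TMM CPM below.

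The study followed CBir1 TCR Tg CD4+ T cells, which carry a transgenic receptor for a flagellin of commensal bacteria, in C57BL/6 mice, with 1 RNA-seq library for each of 6 conditions. Donor cells that were CD45.1 and lacked CD44 were given to CD45.2 recipients on day 0, and all recipients were immunised intraperitoneally with 50 ug of CBir1 flagellin plus 1 ug of CT on days 1 and 7. In the MEP1+Metformin+Rapamycin, MEP1+Rapamycin, MEP1+Metformin and MEP1+CMC groups, the mice were then given 3 ug of the peptide MEP1 intravenously on days 28 and 35, each time followed by 5 days of both inhibitors, rapamycin, metformin or the vehicle CMC, which all 4 groups received. Rapamycin inhibits the kinase mTOR, and metformin lowers mitochondrial energy production and activates AMPK, at doses not stated in these sources. The No treatment group received neither MEP1 nor inhibitors at this stage. Per the protocol, every recipient was challenged with 3 ug of MEP1 intravenously on day 56, and on day 63 the remaining donor cells were recovered from the spleen by sorting. In the No treatment file the count column is headed as unchallenged; the group was taken from the label, which with the protocol says otherwise. The Naive CD4 control library is labelled as naive CBir1 TCR Tg CD4 cells from the spleen, called the naive library below. How many mice stand behind a library, of which sex, and whether they were pooled is not given in the sources used here.

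Library totals ran up to 60622310 counts in No treatment, and the naive library had the fewest, 26139000. The 5 rRNA-like loci took 1.00% to 3.13% of the counts of the transferred libraries and 15.4% of those of the naive library. All 12 CD4 T-cell markers were detected in every library. The summed level of 14 macrophage, monocyte and dendritic-cell markers was 306 to 562 TMM CPM in the 4 MEP1 libraries, 2776 in No treatment and 46.2 in the naive library, where 2 of the 14 were at 0. The summed level of 10 B-cell markers ranged from 624 to 1257 TMM CPM over the 6 libraries, with none at 0. Ighm alone gave 589 to 1223 TMM CPM of these sums. The X-linked transcript Xist stood at 0.22 to 0.49 TMM CPM in the 3 inhibitor libraries, 262 in MEP1+CMC, 24.2 in No treatment and 43.1 in the naive library. The Y-linked transcript Ddx3y stood at 62.0 to 95.8 TMM CPM in the 3 inhibitor libraries, 0.31 in MEP1+CMC, 35.9 in No treatment and 0.38 in the naive library. Inhibitor treatment and the sex of the mice therefore cannot be told apart in any comparison with MEP1+CMC. No treatment held both transcripts, and the naive library held Xist with little Ddx3y. Sex may therefore also differ in the comparisons with No treatment and with the naive library, and its part there was not tested.

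Interferons are secreted proteins that warn cells of infection. Type I interferons act through the receptor chains Ifnar1 and Ifnar2 to bring STAT2 and IRF9 into a complex that binds the interferon-stimulated response element (ISRE), while interferon gamma, made by T cells themselves, acts through the gamma-activated site (GAS). The genes so induced block viral RNA, translation and membranes, and T cells carry a basal level of many of them.

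The promoter windows of 30 of the 40 genes, 250 bases before to 50 after the transcription start, were held in the RefSeq table for build GRCm38.p6. The other 10 genes were Dhx58, Zbp1, Usp18, Oas2, Mx1, Mx2, Gbp4, Rtp4, Parp9 and Parp14. On either strand, the ISRE core letters GAAANNGAAA, where N is any base, were found for 16 of the 30 genes (53.3%), against 3.99% of all genes in the table. By window, 3.44% of all promoters of this length held the ISRE core. The GAS core letters TTCNNNGAA were found for 11 of the 30 genes (36.7%), against 9.55% of all genes and 8.30% of all promoters. All 5 GBP and IRG genes with a window held an ISRE core, and a GAS core overlapped an ISRE core in the Bst2 window. A match describes the letters and is not a bound site.

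The 7 windows below are examples from genes named in the results: antiviral effectors with the ISRE core, 2 guanylate-binding proteins, and Irf8. The windows of Irf7, Oasl1 and Oasl2 held neither core and are not printed. They run 5′ to 3′ on the strand of the gene, from RefSeq on GRCm38.p6. Capitals mark each ISRE core on either strand, and for Irf8, which holds no ISRE core in this window, the GAS cores.
Isg15 promoter, chr4:156200769-156201068, minus strand: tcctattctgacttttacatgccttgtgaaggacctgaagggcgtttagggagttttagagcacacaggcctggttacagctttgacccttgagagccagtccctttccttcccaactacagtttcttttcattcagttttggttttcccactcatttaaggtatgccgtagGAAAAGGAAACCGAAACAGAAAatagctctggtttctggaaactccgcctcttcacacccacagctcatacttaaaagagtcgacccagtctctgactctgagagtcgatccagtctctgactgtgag
Ifit1 promoter, chr19:34640639-34640938, plus strand: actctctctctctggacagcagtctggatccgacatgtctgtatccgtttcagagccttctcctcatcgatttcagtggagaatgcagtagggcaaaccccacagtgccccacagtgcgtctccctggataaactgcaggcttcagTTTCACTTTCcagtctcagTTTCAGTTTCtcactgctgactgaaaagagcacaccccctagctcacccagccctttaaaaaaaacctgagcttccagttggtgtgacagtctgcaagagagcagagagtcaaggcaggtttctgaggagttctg
Ifit3 promoter, chr19:34583279-34583578, plus strand: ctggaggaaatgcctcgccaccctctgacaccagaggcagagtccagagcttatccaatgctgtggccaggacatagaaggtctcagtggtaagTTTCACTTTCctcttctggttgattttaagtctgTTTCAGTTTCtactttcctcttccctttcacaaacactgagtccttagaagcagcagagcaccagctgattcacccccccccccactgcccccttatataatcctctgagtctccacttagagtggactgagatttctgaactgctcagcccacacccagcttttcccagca
Oas3 promoter, chr5:120777610-120777909, minus strand: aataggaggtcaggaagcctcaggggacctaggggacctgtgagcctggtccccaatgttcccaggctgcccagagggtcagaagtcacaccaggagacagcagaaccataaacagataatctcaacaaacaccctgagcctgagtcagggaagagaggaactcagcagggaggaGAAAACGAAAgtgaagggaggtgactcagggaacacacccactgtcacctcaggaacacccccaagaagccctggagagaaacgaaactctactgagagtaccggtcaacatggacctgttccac
Gbp3 promoter, chr3:142559794-142560093, plus strand: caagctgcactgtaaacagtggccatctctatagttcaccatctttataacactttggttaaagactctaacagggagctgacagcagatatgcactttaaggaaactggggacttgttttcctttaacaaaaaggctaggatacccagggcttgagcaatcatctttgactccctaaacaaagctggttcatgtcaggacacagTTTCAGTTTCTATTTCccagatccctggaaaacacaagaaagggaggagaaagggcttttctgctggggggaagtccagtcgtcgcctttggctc
Gbp5 promoter, chr3:142496684-142496983, plus strand: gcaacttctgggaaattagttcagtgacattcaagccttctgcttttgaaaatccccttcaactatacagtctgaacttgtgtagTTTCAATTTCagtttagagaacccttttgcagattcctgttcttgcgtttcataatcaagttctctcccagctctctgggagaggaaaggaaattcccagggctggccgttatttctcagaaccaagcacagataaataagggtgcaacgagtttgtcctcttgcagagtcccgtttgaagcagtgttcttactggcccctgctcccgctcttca
Irf8 promoter, chr8:120736108-120736407, plus strand: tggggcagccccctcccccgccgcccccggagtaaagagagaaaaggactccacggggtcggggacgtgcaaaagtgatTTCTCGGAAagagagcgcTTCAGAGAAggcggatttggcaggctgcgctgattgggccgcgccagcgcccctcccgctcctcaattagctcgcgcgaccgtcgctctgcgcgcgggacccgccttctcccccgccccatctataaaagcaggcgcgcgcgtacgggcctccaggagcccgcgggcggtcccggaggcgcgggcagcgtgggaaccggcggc
The 3 ISRE cores of Isg15 run into each other in a single block, whereas those of Ifit1 and Ifit3 stand apart and read TTTCACTTTC and TTTCAGTTTC on the printed strand in both genes.

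**Figure D1:**
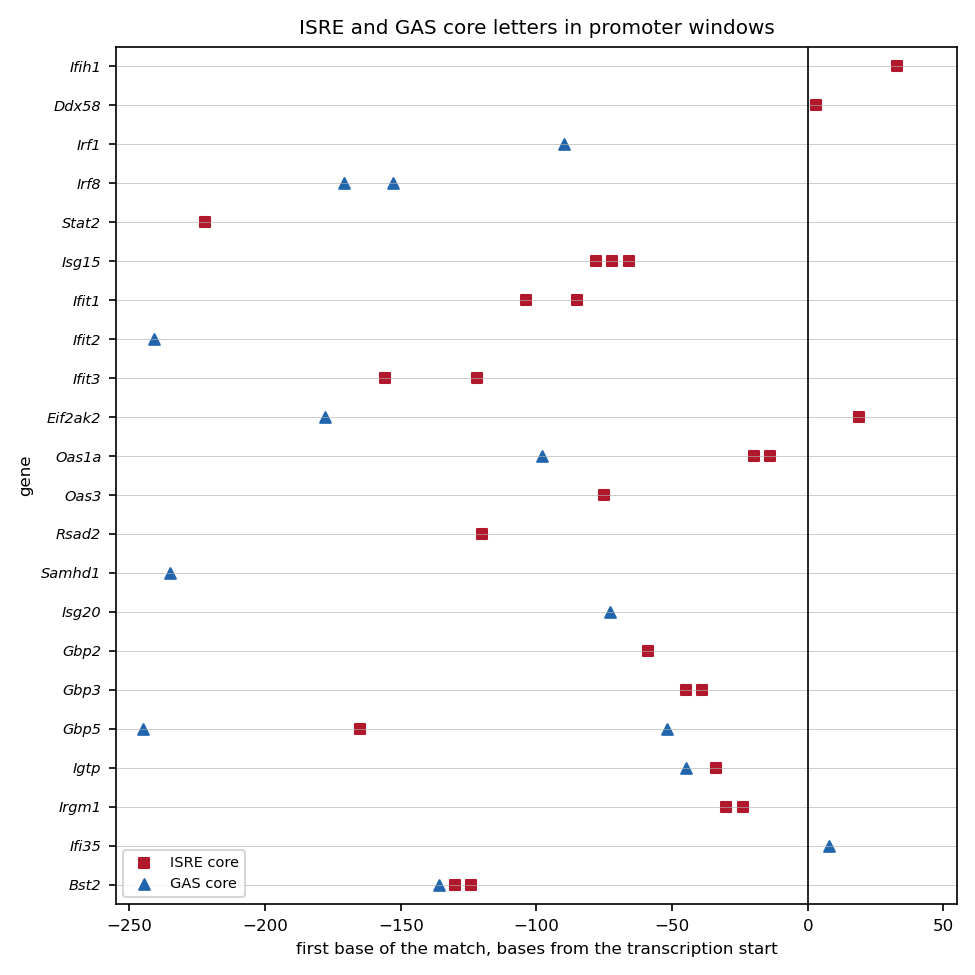
Position of the ISRE core (red squares) and GAS core (blue triangles) letters in the promoter windows of the response genes that hold either, in bases from the transcription start (x axis), 1 gene per row. Most ISRE cores lie before the start, and Irf8, Irf1, Ifit2, Samhd1, Isg20 and Ifi35 hold GAS cores alone.

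Among the 5 transferred libraries the response genes were spread no wider than other genes. The highest and the lowest library differed by 2-fold or more for 11 of the 40 (27.5%), and for 27.5% of all genes kept. The median ratio of highest to lowest was 1.60 for the response genes and 1.62 for all genes. Per kilobase of exon, the mean level over the transferred libraries was highest for Irf1 (110 TMM CPM per kb), a transcription factor of the gamma response, followed by the immunity GTPase Igtp (85.1), the virus tether Bst2 (64.2), Ifi35 (55.2) and the nucleotide hydrolase Samhd1 (45.02). The naive library was higher than each transferred library for 26 of the 40 genes, against 32.5% of all genes, and lower than each for 3, against 33.4%. With library totals as the scale, these counts were 17 (9.99% of all genes) and 15 (65.6% of all genes).

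**Figure D2:**
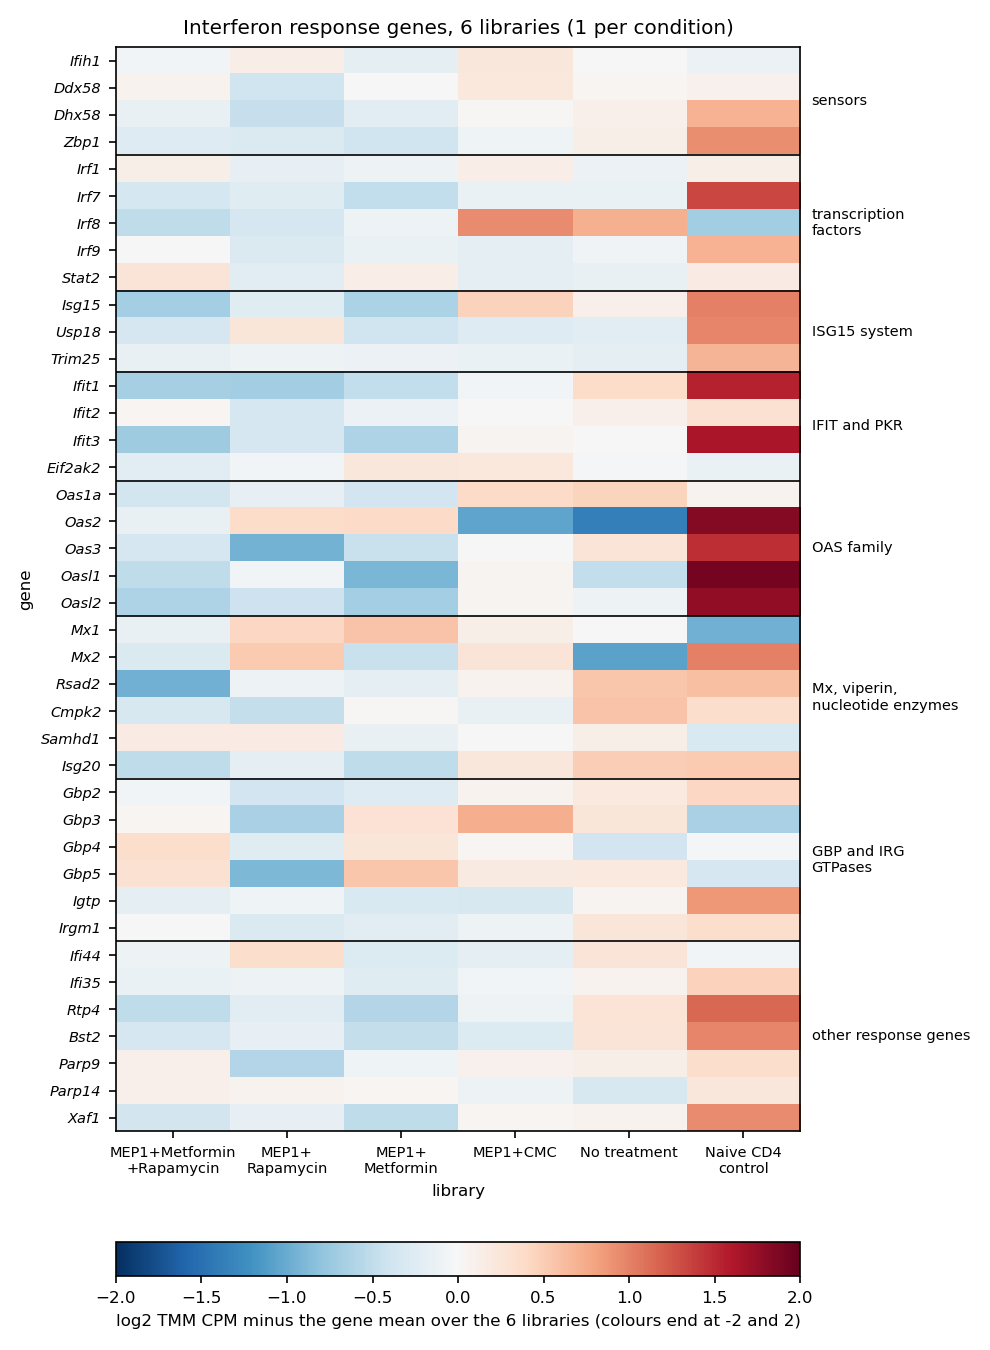
Level of the 40 interferon response genes (rows, grouped by role) in the 6 libraries (columns, 1 library each). Colour is log2 TMM CPM minus the gene's mean over the 6 libraries, red above and blue below; the naive column holds most of the dark red, at Irf7, Ifit1, Ifit3, Oas2, Oas3, Oasl1 and Oasl2, and Irf8 is red in MEP1+CMC and No treatment.

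The transferred cells had lower levels of a part of the antiviral genes than the naive cells. In an edgeR fit of the 5 transferred libraries against the naive library, 14 of the 40 genes fell and none rose at an adjusted p below 0.05, where 5.62% of all genes fell and 4.19% rose. The median log2 fold change of the 40 was -0.56, against 0.06 for all genes. In bulk RNA, fewer cells that express a gene and less of its RNA per cell cannot be told apart. The falling genes were spread over roles: 3 of 5 OAS genes, 2 of 4 in the IFIT and translation group, 2 of 3 in the ISG15 system, 2 of 5 transcription factors, 1 of 4 sensors, 1 of 6 GBP and IRG GTPases and 3 of 7 others. Of the 6 Mx, viperin and nucleotide genes, none was called. With library totals as the scale the median of all genes was 0.65 and that of the 40 genes 0.02, so that the distance between them was -0.63, against -0.62 with TMM. On that scale 6 genes fell (Oasl1, Oasl2, Oas3, Ifit1, Ifit3 and Irf7), where 1.48% of all genes fell, and 1 rose (Samhd1), where 19.3% rose. Every value below rests on the single naive library. Some markers of other lymphocytes fell in the same fit: 2 of 9 B-cell markers and 2 of 4 CD8 T-cell and NK-cell markers tested. Of the B-cell markers these were Cd79a, with 4.40 to 16.4 TMM CPM in the transferred libraries and 38.2 in the naive library (-2.19 ± 0.54, adjusted p = 0.0414), and Ighd, with 1.62 to 4.02 in the transferred libraries and 26.7 in the naive library (-3.22 ± 0.38, adjusted p = 0.00158). Of the CD8 T-cell and NK-cell markers they were Cd8a, with 0.34 to 1.16 TMM CPM in the transferred libraries and 5.49 in the naive library (-2.76 ± 0.68, adjusted p = 0.0342), and Cd8b1, with 2.61 to 5.77 in the transferred libraries and 24.8 in the naive library (-2.86 ± 0.39, adjusted p = 0.00344). No marker of either list was called as rising, though Cd22 had 9.99 to 29.0 TMM CPM in the transferred libraries and 6.14 in the naive library. Ighm spanned its naive value, with 589 to 1223 TMM CPM in the transferred libraries and 923 in the naive library. Klrb1c and Klre1 were at 0 in the naive library alone. The part of such cells in the falls of the response genes was not tested.

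The OAS enzymes make oligoadenylates that activate the antiviral nuclease RNase L, and their OAS-like relatives had the largest falls. Oasl1, which in mouse restrains translation of Irf7, had 8.54 TMM CPM in MEP1+Metformin+Rapamycin, 11.7 in MEP1+Rapamycin, 6.43 in MEP1+Metformin, 12.5 in MEP1+CMC, 8.58 in No treatment and 45.8 in the naive library. Oasl2 had 11.2 TMM CPM in MEP1+Metformin+Rapamycin, 12.9 in MEP1+Rapamycin, 10.8 in MEP1+Metformin, 18.0 in MEP1+CMC, 16.2 in No treatment and 58.9 in the naive library. For both, all 5 transferred libraries lay far below the naive value, with log2 fold changes of -2.26 ± 0.31 for Oasl1 (SE, adjusted p = 0.00347) and -2.09 ± 0.28 for Oasl2 (adjusted p = 0.00313). Oas3, whose promoter is printed above, had 22.1 TMM CPM in MEP1+Metformin+Rapamycin, 14.4 in MEP1+Rapamycin, 20.5 in MEP1+Metformin, 27.6 in MEP1+CMC, 33.1 in No treatment and 77.3 in the naive library. Its log2 fold change was -1.71 ± 0.33 (adjusted p = 0.0160). Oas2 had a log2 fold change of -2.07 ± 0.59 without passing (adjusted p = 0.0568), and Oas1a one of -0.04 ± 0.35. Reads of Oas1a may be shared with its close paralog Oas1g.

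The IFIT proteins bind viral RNA and block its translation. Ifit1 had 25.8 TMM CPM in MEP1+Metformin+Rapamycin, 25.2 in MEP1+Rapamycin, 29.2 in MEP1+Metformin, 39.5 in MEP1+CMC, 52.8 in No treatment and 119 in the naive library. Ifit3 had 17.2 TMM CPM in MEP1+Metformin+Rapamycin, 22.3 in MEP1+Rapamycin, 18.4 in MEP1+Metformin, 29.4 in MEP1+CMC, 27.96 in No treatment and 87.3 in the naive library. Both fell, by log2 values of -1.79 ± 0.35 for Ifit1 (adjusted p = 0.0163) and -1.92 ± 0.28 for Ifit3 (adjusted p = 0.00445), and in both the 3 inhibitor libraries were the lowest. Their neighbour Ifit2 on chromosome 19 had a log2 fold change of -0.36 ± 0.23 without passing, and Eif2ak2, which encodes the RNA-activated kinase PKR, one of 0.18 ± 0.31. Ifit3 has a near copy, Ifit3b, with which reads may be shared. Ifit3b fell as well, by -1.83 ± 0.39 on the log2 scale (adjusted p = 0.0209).

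Irf7, the factor that amplifies type I interferon production, had the smallest adjusted p of the 40 genes. It had 108 TMM CPM in MEP1+Metformin+Rapamycin, 115 in MEP1+Rapamycin, 97.5 in MEP1+Metformin, 124 in MEP1+CMC, 125 in No treatment and 347 in the naive library. The transferred libraries were close together and the naive library was 3.04-fold above their fitted level, with a log2 fold change of -1.61 ± 0.20 (adjusted p = 0.00232). Irf9, the DNA-binding subunit of the type I complex, had 141 TMM CPM in MEP1+Metformin+Rapamycin, 117 in MEP1+Rapamycin, 130 in MEP1+Metformin, 125 in MEP1+CMC, 136 in No treatment and 232 in the naive library. Its log2 fold change was -0.83 ± 0.20 (adjusted p = 0.0305). Its partner Stat2 (-0.19 ± 0.25) and Irf1 (-0.13 ± 0.24) did not pass. Irf9 shares 123 exon bases with Rnf31 on the same strand, and Irf7 shares 45 with Phrf1 on the opposite strand.

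In the ISG15 system, which tags proteins with a ubiquitin-like modifier, the regulators fell. Usp18, the protease that removes ISG15 and dampens the type I receptor, had 41.4 TMM CPM in MEP1+Metformin+Rapamycin, 62.0 in MEP1+Rapamycin, 39.6 in MEP1+Metformin, 43.8 in MEP1+CMC, 44.9 in No treatment and 102 in the naive library. Trim25, a ubiquitin and ISG15 ligase, had 39.9 TMM CPM in MEP1+Metformin+Rapamycin, 40.8 in MEP1+Rapamycin, 40.8 in MEP1+Metformin, 40.3 in MEP1+CMC, 38.5 in No treatment and 70.7 in the naive library. The 5 transferred values of Trim25 were nearly equal, and MEP1+Rapamycin stood above the other 4 for Usp18. Their log2 fold changes were -1.15 ± 0.25 for Usp18 (adjusted p = 0.0214) and -0.82 ± 0.19 for Trim25 (adjusted p = 0.0250). Isg15 itself had a log2 fold change of -1.14 ± 0.39 and missed the threshold (adjusted p = 0.0993).

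Of the nucleic acid sensors, Zbp1, which binds Z-form RNA and DNA, had 102 TMM CPM in MEP1+Metformin+Rapamycin, 100.4 in MEP1+Rapamycin, 93.0 in MEP1+Metformin, 115 in MEP1+CMC, 132 in No treatment and 232 in the naive library. It fell by -1.10 ± 0.22 on the log2 scale (adjusted p = 0.0176). The RNA helicases Ddx58 (RIG-I; -0.08 ± 0.25), Ifih1 (MDA5; 0.14 ± 0.28) and Dhx58 (LGP2; -0.82 ± 0.24) did not pass. Igtp, an immunity GTPase of intracellular membranes, had 168 TMM CPM in MEP1+Metformin+Rapamycin, 182 in MEP1+Rapamycin, 156 in MEP1+Metformin, 154 in MEP1+CMC, 200.1 in No treatment and 352 in the naive library. Its log2 fold change was -1.03 ± 0.22 (adjusted p = 0.0193), and it shares 162 exon bases with Irgm2 on the same strand. The other GBP and IRG genes, which encode GTPases that attack vacuoles of intracellular microbes, ranged from -0.48 ± 0.25 for Gbp2 to 0.85 ± 0.46 for Gbp3, and none passed.

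Among the other response genes, Bst2, which tethers budding virions, had 51.5 TMM CPM in MEP1+Metformin+Rapamycin, 58.5 in MEP1+Rapamycin, 47.1 in MEP1+Metformin, 54.4 in MEP1+CMC, 78.6 in No treatment and 128 in the naive library. Rtp4, a receptor chaperone that interferons induce, had 36.5 TMM CPM in MEP1+Metformin+Rapamycin, 44.6 in MEP1+Rapamycin, 34.6 in MEP1+Metformin, 48.0 in MEP1+CMC, 62.3 in No treatment and 114 in the naive library. Xaf1, a pro-apoptotic protein, had 38.3 TMM CPM in MEP1+Metformin+Rapamycin, 44.0 in MEP1+Rapamycin, 34.7 in MEP1+Metformin, 50.7 in MEP1+CMC, 51.7 in No treatment and 95.7 in the naive library. All 3 were lowest in MEP1+Metformin and highest in the naive library. The log2 fold changes were -1.15 ± 0.26 for Bst2 (adjusted p = 0.0250), -1.34 ± 0.28 for Rtp4 (adjusted p = 0.0202) and -1.12 ± 0.24 for Xaf1 (adjusted p = 0.0214). Bst2 is also a marker of plasmacytoid dendritic cells. Without Bst2, the markers of these cells summed to 49.8 to 85.6 TMM CPM in the transferred libraries and 134 in the naive library. Of the naive sum, Pacsin1 gave 72.2 and Ccr9 45.3. Siglech, the defining marker of plasmacytoid dendritic cells, stood at 1.87 to 10.9 TMM CPM in the transferred libraries and at 0 in the naive library.

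**Figure D3:**
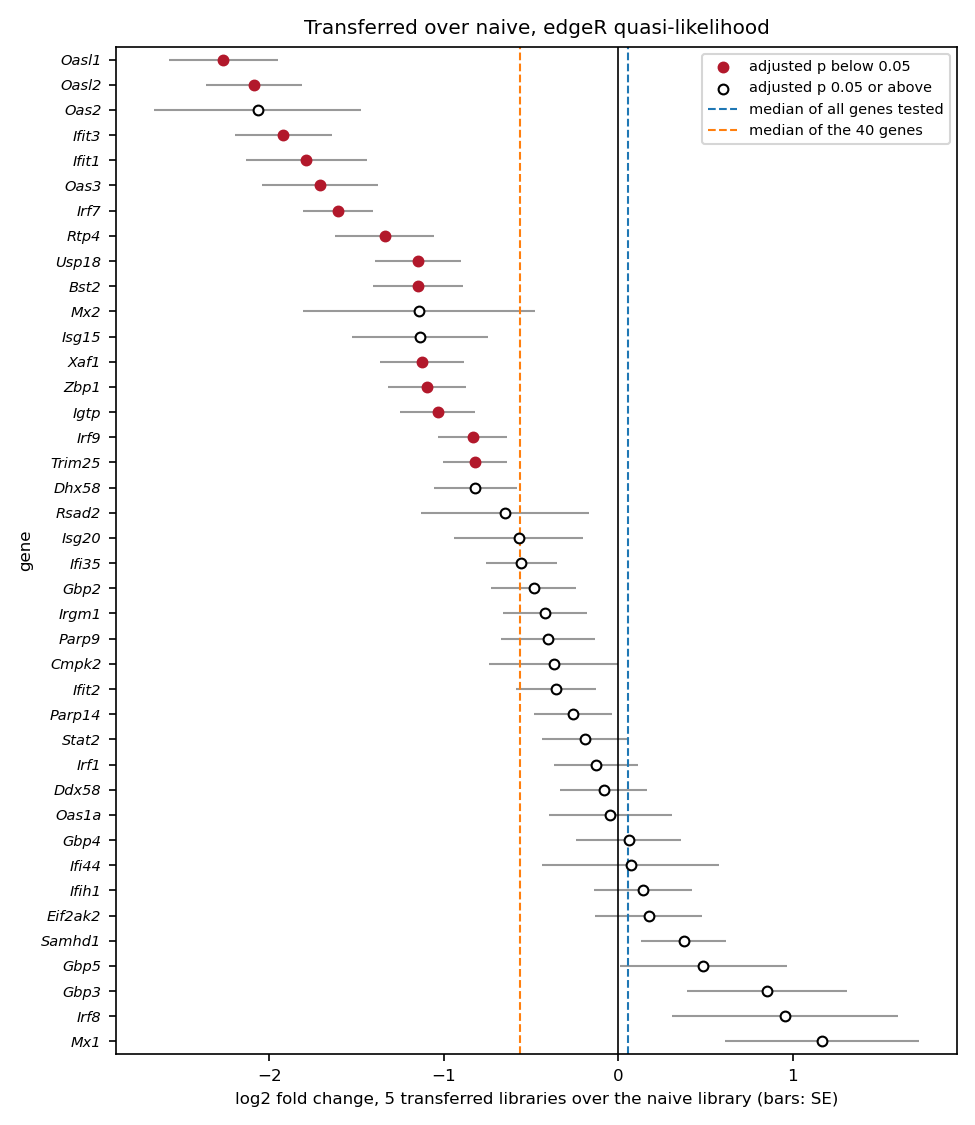
Log2 fold change of each interferon response gene (rows, sorted) in the 5 transferred libraries over the naive library, with SE bars from edgeR. Filled red points are the 14 genes that passed and open points the others; dashed lines give the median of the 40 genes (-0.56, orange) and of all genes (0.06, blue).

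The ISRE core was found for 5 of the 11 fallen genes with a promoter window and for 11 of the 19 uncalled ones. No treatment alone was also set against the naive library by the size rule. This rule asks for a ratio of at least 2-fold whose exact 95% counting interval excludes no change. Both libraries are part of the fit above, so the comparison is not independent of it. By the size rule, 9 genes were lower, where 7.54% of all genes were, and 1 was higher, where 16.4% were. The lower ones were Oas2, Oas3, Oasl1, Oasl2, Ifit1, Ifit3, Irf7, Usp18 and Mx2, with Oas2 at a log2 ratio of -3.20 (95% interval -3.59 to -2.83). Of these, Oas2 and Mx2 were not called in the fit. The higher one was Irf8, at 1.40 (1.25 to 1.55). The median log2 ratio was -0.38 for the 40 genes and 0.08 for all genes. With library totals, 6 were lower (3.56% of all genes) and 3 higher (25.2%). Intervals cover counting error only.

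Turning to the treatments, the response genes were near their No treatment levels with MEP1 alone. In MEP1+CMC over No treatment, none of the 40 was lower by the size rule, where 3.72% of all genes were, and 1 was higher, where 7.76% were. That gene was Mx2, of the dynamin-like antiviral GTPases, which the annotation used here lists as a polymorphic pseudogene. It had 1.95 TMM CPM in MEP1+Metformin+Rapamycin, 3.43 in MEP1+Rapamycin, 1.75 in MEP1+Metformin, 2.85 in MEP1+CMC, 1.13 in No treatment and 4.79 in the naive library. The log2 ratio of Mx2 in MEP1+CMC over No treatment was 1.33 (95% interval 0.91 to 1.77), from 167 counts in MEP1+CMC and 65 in No treatment, and in MEP1+Rapamycin over No treatment it was 1.60 (1.16 to 2.05). These are among the lowest levels of the 40 genes. The median log2 ratio of MEP1+CMC over No treatment was -0.03 for the 40 genes and -0.04 for all genes. With all 4 MEP1 libraries set against No treatment, edgeR called 0 of the 40, where 0.6% of all genes rose and 1.3% fell. There 6 of the 40 had an unadjusted p below 0.05, as did 17.4% of all genes, and the DESeq2 Wald test also called 0.

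Against MEP1+CMC, 2 or 3 of the 40 were lower by the size rule in each inhibitor library, and only Irf8 was lower in all 3. How many of all genes were lower in all 3 was not computed. In MEP1+Metformin+Rapamycin 3 were lower (Irf8, Isg15 and Rsad2; 3.68% of all genes) and 0 higher (3.01%). In MEP1+Rapamycin 3 were lower (Irf8, Gbp3 and Gbp5; 5.83%) and 1 higher (Oas2; 5.15%). In MEP1+Metformin 2 were lower (Irf8 and Isg15; 2.98%) and 1 higher (Oas2; 2.66%). The 3 comparisons share the MEP1+CMC library. The median log2 ratio of the 40 genes was -0.17 with both inhibitors, -0.20 with rapamycin and -0.22 with metformin, against -0.01, -0.13 and -0.04 for all genes. With library totals, 2 were lower (3.15% of all genes) and 1 higher (3.95%) with both inhibitors, and 2 were lower (4.53%) and 1 higher (7% of all genes) with rapamycin. On that scale 0 were lower (2.35%) and 1 higher (3.91%) with metformin, where Irf8 missed 2-fold.

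Irf8 encodes a transcription factor of myeloid cells, B cells and activated T cells that interferon gamma induces (gene ENSMUSG00000041515, chr8:120736358-120756694, GRCm38). It had 25.5 TMM CPM in MEP1+Metformin+Rapamycin, 28.5 in MEP1+Rapamycin, 33.7 in MEP1+Metformin, 69.4 in MEP1+CMC, 59.0 in No treatment and 22.3 in the naive library. The 3 inhibitor libraries lay below both libraries without inhibitor and slightly above the naive library. Over MEP1+CMC, the log2 ratio was -1.44 with both inhibitors (95% interval -1.53 to -1.36), -1.28 with rapamycin (-1.38 to -1.18) and -1.04 with metformin (-1.12 to -0.96). In the additive edgeR fits of the 4 MEP1 libraries, the rapamycin term of Irf8 was -0.84 ± 0.24 (SE, adjusted p = 0.301) and its metformin term -0.61 ± 0.23 (adjusted p = 0.676). Under a stricter filter that tested 8620 genes, the rapamycin terms of Irf8 and Gbp3 passed. These were 2 of the 35 response genes tested there, and both fell, where 0.94% of all genes fell and 0.302% rose. Macrophage markers summed to 374, 306 and 351 TMM CPM in MEP1+Metformin+Rapamycin, MEP1+Rapamycin and MEP1+Metformin, 562 in MEP1+CMC and 2776 in No treatment, while Irf8 was higher in MEP1+CMC than in No treatment. B-cell markers summed to 922, 724 and 624 TMM CPM in MEP1+Metformin+Rapamycin, MEP1+Rapamycin and MEP1+Metformin, 878 in MEP1+CMC and 1257 in No treatment. The part of such cells in the Irf8 levels was not tested.

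Isg15, the secreted and conjugated ubiquitin-like modifier, was, like Irf8, highest in MEP1+CMC among the transferred libraries. It had 16.7 TMM CPM in MEP1+Metformin+Rapamycin, 22.7 in MEP1+Rapamycin, 17.2 in MEP1+Metformin, 37.0 in MEP1+CMC, 28.8 in No treatment and 53.8 in the naive library. The log2 ratio of Isg15 over MEP1+CMC was -1.15 with both inhibitors (95% interval -1.26 to -1.04) and -1.10 with metformin (-1.22 to -0.99). With rapamycin alone Isg15 missed 2-fold. Its metformin term was -0.78 ± 0.24 (adjusted p = 0.602). Rsad2, which encodes the radical enzyme viperin, had 4.82 TMM CPM in MEP1+Metformin+Rapamycin, 8.69 in MEP1+Rapamycin, 8.27 in MEP1+Metformin, 9.86 in MEP1+CMC, 13.8 in No treatment and 14.3 in the naive library. The combination was the lowest of the 6, at a log2 ratio of -1.03 over MEP1+CMC (-1.25 to -0.82) and -1.51 over No treatment (-1.72 to -1.31).

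Oas2 stood the other way from Oas1a, Oas3 and Oasl2 (ENSMUSG00000032690, chr5:120730333-120749853). It had 3.17 TMM CPM in MEP1+Metformin+Rapamycin, 4.53 in MEP1+Rapamycin, 4.58 in MEP1+Metformin, 1.69 in MEP1+CMC, 1.36 in No treatment and 12.5 in the naive library. The 3 inhibitor libraries lay above both libraries without inhibitor and below the naive one. Over MEP1+CMC its log2 ratio was 1.42 with rapamycin (95% interval 1.06 to 1.80) and 1.44 with metformin (1.09 to 1.79), from 168, 231 and 99 counts in MEP1+Rapamycin, MEP1+Metformin and MEP1+CMC. Oas1a and Oas3, of the same gene cluster on chromosome 5, were lower with each inhibitor than without. Oas1a had 32.2 TMM CPM in MEP1+Metformin+Rapamycin, 37.2 in MEP1+Rapamycin, 32.0 in MEP1+Metformin, 54.1 in MEP1+CMC, 56.3 in No treatment and 43.7 in the naive library.

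Of the guanylate-binding proteins, Gbp3 and Gbp5 were lower with rapamycin alone, and adding metformin to rapamycin gave a higher Gbp5. Gbp3 had 34.1 TMM CPM in MEP1+Metformin+Rapamycin, 21.01 in MEP1+Rapamycin, 40.4 in MEP1+Metformin, 54.8 in MEP1+CMC, 39.3 in No treatment and 21.05 in the naive library. Gbp5, which promotes inflammasome assembly, had 23.5 TMM CPM in MEP1+Metformin+Rapamycin, 10.1 in MEP1+Rapamycin, 27.9 in MEP1+Metformin, 21.4 in MEP1+CMC, 21.8 in No treatment and 15.0 in the naive library. MEP1+Rapamycin was the lowest of the transferred libraries for both, as it was for 38.7% of all genes. Over MEP1+CMC, rapamycin gave log2 ratios of -1.38 for Gbp3 (95% interval -1.50 to -1.27) and -1.08 for Gbp5 (-1.25 to -0.91). For Gbp5 the ratio was 1.21 in the combination over rapamycin (1.05 to 1.38) and -1.46 in rapamycin over metformin (-1.63 to -1.30). Gbp2, Gbp3 and Gbp5 lie near each other on chromosome 3, with other GBP genes between them, and Gbp2 passed in none of these pairs.

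**Figure D4:**
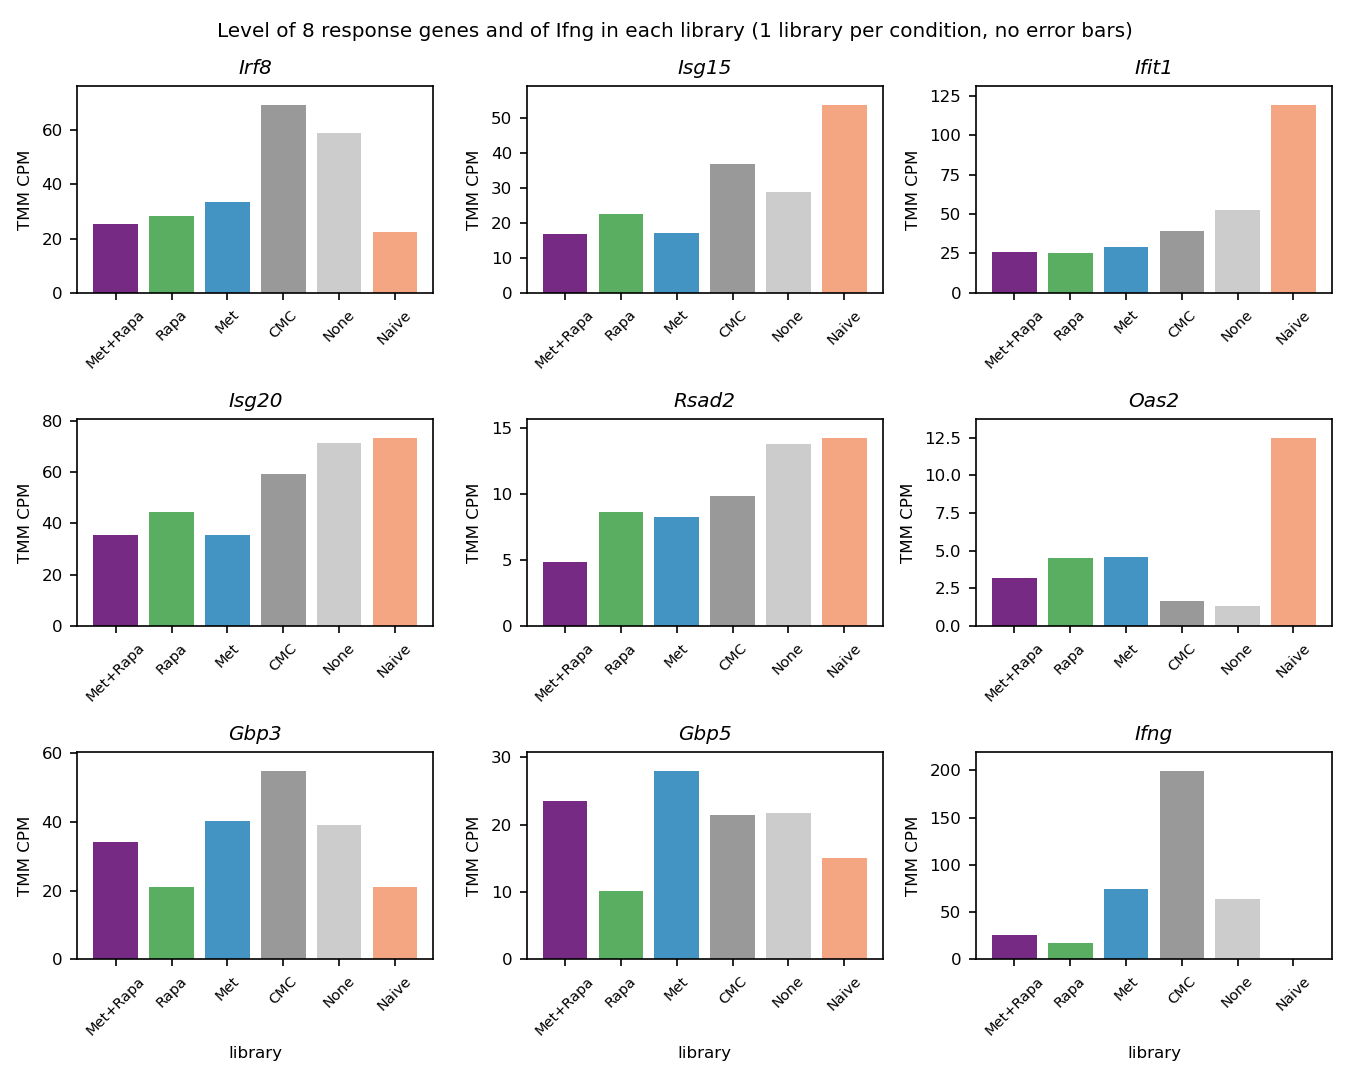
TMM CPM of 8 interferon response genes and of Ifng in each library (Met+Rapa, MEP1+Metformin+Rapamycin; Rapa, MEP1+Rapamycin; Met, MEP1+Metformin; CMC, MEP1+CMC; None, No treatment; Naive, naive library), 1 library per bar, each axis from 0. Irf8, Isg15, Ifit1, Isg20 and Rsad2 are lower in all 3 inhibitor libraries than in MEP1+CMC and No treatment, Oas2 is higher, and Gbp5 is lowest with rapamycin alone.

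Between the inhibitor groups, 0 or 1 of the 40 passed the size rule in each direction, near the shares of all genes. In MEP1+Metformin+Rapamycin over MEP1+Metformin, 0 of the 40 were higher (1.27% of all genes) and 0 lower (1.71%). In the combination over MEP1+Rapamycin, Gbp5 was the 1 higher gene (3.33% of all genes) and 0 were lower (3.01%). In MEP1+Rapamycin over MEP1+Metformin, Gbp5 was the 1 lower gene (4.03% of all genes) and 0 were higher (4.03%). The rapamycin and metformin terms of the additive edgeR fits each called 0 of the 40. For rapamycin 0.0545% of all genes rose and 0.148% fell, and for metformin 0.0623% rose and 0.101% fell. An unadjusted p below 0.05 was found for 3 of the 40 with rapamycin (6.29% of all genes) and for 7 with metformin (7.19%), and the DESeq2 Wald test called 0 for either.

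Against No treatment, the counts of lower genes rested on the scale. In MEP1+Metformin+Rapamycin, 4 were lower (Irf8, Ifit1, Rsad2 and Isg20; 4.92% of all genes) and Oas2 was higher (8.46%), whereas library totals gave 1 lower (3.61%) and 2 higher (11.5%). In MEP1+Rapamycin, 5 were lower (Irf8, Ifit1, Oas3, Cmpk2 and Gbp5; 7.28%) and 2 higher (Oas2 and Mx2; 9.04%), whereas library totals gave 0 lower (4.64%) and 2 higher (12.1%). In MEP1+Metformin, Isg20 was lower (5.26%) and Oas2 higher (8.87%), whereas library totals gave 0 lower (3.58%) and 1 higher (12.5%). The exonuclease gene Isg20 had 35.7 TMM CPM in MEP1+Metformin+Rapamycin, 44.4 in MEP1+Rapamycin, 35.7 in MEP1+Metformin, 59.4 in MEP1+CMC, 71.4 in No treatment and 73.3 in the naive library. Cmpk2, a mitochondrial nucleotide kinase next to Rsad2 on chromosome 12, had 18.9 TMM CPM in MEP1+Metformin+Rapamycin, 16.8 in MEP1+Rapamycin, 23.8 in MEP1+Metformin, 21.3 in MEP1+CMC, 35.0 in No treatment and 30.0 in the naive library. Isg20 was lower in all 3 inhibitor libraries than in either library without inhibitor, while Cmpk2 in MEP1+Metformin was above MEP1+CMC.

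Across the 40 genes, 16 were lower in all 3 inhibitor libraries than in both MEP1+CMC and No treatment, where 23.6% of all genes were, and 2 (Oas2 and Parp14) were higher, where 13.9% of all genes were. The lower ones were Irf7, Irf8, Isg15, Ifit1, Ifit3, Oas1a, Oas3, Oasl2, Rsad2, Isg20, Gbp2, Zbp1, Dhx58, Ifi35, Rtp4 and Xaf1. With library totals 11 were lower (9.28% of all genes) and 6 higher (25.2%), and with DESeq2 size factors 13 were lower (18.4%) and 3 higher (17.9%). An edgeR fit of the 3 inhibitor libraries against these 2, added after the pattern had been seen, called 0 of the 40, where 0.00779% of all genes rose and 0.0234% fell. An unadjusted p below 0.05 was found for 12 of the 40 and for 16.2% of all genes. Irf8 came nearest, with a log2 fold change of -1.14 ± 0.18 (adjusted p = 0.0857), followed by Oas1a at -0.71 ± 0.15 (adjusted p = 0.180). The DESeq2 Wald test on the same split called 5 of the 40: Irf8, Ifit1, Isg20 and Oas1a fell, where 1.87% of all genes fell, and Oas2 rose, where 2.38% rose. Without No treatment, edgeR again called 0, with 8 of the 40 and 6.91% of all genes at an unadjusted p below 0.05.

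The 16 response genes not given in every library above or below differed by 1.22-fold to 1.68-fold between the highest and the lowest transferred library, and none was called in the edgeR fits at their stated settings or passed the size rule among those libraries with TMM scaling. Under other settings of the transferred over naive fit, Dhx58 fell with DESeq2 size factors, the Wald test, older quasi-likelihood settings, the stricter filter, TMM over the kept genes or No treatment left out, and Ifi35 fell with the Wald test or No treatment left out. They are Ifih1, Ddx58, Dhx58, Irf1, Stat2, Ifit2, Eif2ak2, Mx1, Samhd1, Gbp2, Gbp4, Irgm1, Ifi44, Ifi35, Parp9 and Parp14. Gbp4 ranged most among them, with 202 TMM CPM in MEP1+Metformin+Rapamycin, 133 in MEP1+Rapamycin, 187 in MEP1+Metformin, 162 in MEP1+CMC, 120 in No treatment and 154 in the naive library, and it shares exon bases with Gbp8 and Gbp9. Mx1, whose protein is known to be defective in C57BL/6, had 4.54 to 7.496 TMM CPM in the transferred libraries and 2.58 in the naive library. Samhd1 had 355 to 441 TMM CPM in the transferred libraries and 317 in the naive library. Parp9 shares 458 exon bases with Dtx3l on the opposite strand, so their reads may not be told apart.

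Upstream of these genes, interferon gamma was the only ligand of the 10 listed that passed the filter. Ifng had 25.4 TMM CPM in MEP1+Metformin+Rapamycin, 17.5 in MEP1+Rapamycin, 74.4 in MEP1+Metformin, 199 in MEP1+CMC, 63.8 in No treatment and 0.16 in the naive library, the last from 3 counts. It was highest in MEP1+CMC, as Irf8 was. The naive library held almost none of it and had the highest Ifit1, Ifit3, Irf7 and OAS-like levels. Over MEP1+CMC the log2 ratio of Ifng was -2.97 with both inhibitors (95% interval -3.05 to -2.89), -3.51 with rapamycin (-3.63 to -3.40) and -1.42 with metformin (-1.48 to -1.37). The part of Ifng in the levels of the response genes was not tested.

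Of 5 receptor chains tested in the transferred over naive fit, Ifngr2 fell (-1.26 ± 0.25, adjusted p = 0.0162) and Il10rb, a chain of the lambda interferon receptor, rose (0.99 ± 0.23, adjusted p = 0.0295). The ligand-binding chain Ifngr1 had a log2 fold change of -0.25 ± 0.23 and Ifnar1 one of 0.43 ± 0.24, without passing. Among 11 JAK-STAT genes, only Socs1, a feedback inhibitor of the receptor kinases, was called, and it fell (-1.03 ± 0.24, adjusted p = 0.0260). In MEP1+Rapamycin over MEP1+CMC all 11 were below 0 on the log2 scale, as were 61.3% of all genes, and Jak2 passed the size rule at -1.16 (95% interval -1.22 to -1.11). Over MEP1+Metformin, Tyk2, the kinase of the type I receptor, was lower in MEP1+Rapamycin at -1.20 (-1.27 to -1.14), and over No treatment Socs3 was lower at -1.15 (-1.19 to -1.10).

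Of 10 sensing adaptors and IRF kinases tested, the RNA sensor Tlr7 fell in transferred over naive cells (-1.99 ± 0.51, adjusted p = 0.0369) and Irf5 rose (1.60 ± 0.35, adjusted p = 0.0228). Of 56 other antiviral response genes, 6 fell and 3 rose, where 5.62% of all genes fell and 4.19% rose, and the largest changes were those of Ifit3b, given above, and of Tdrd7, which rose by 1.60 ± 0.38 (adjusted p = 0.0293). Of 12 other interferon-inducible GTPases, 4 fell and none rose. They included Tgtp1 (-1.92 ± 0.23, adjusted p = 0.00176), Tgtp2 (-1.25 ± 0.23, adjusted p = 0.0119) and Gbp10 (-1.22 ± 0.31, adjusted p = 0.0391), though Tgtp1 and Tgtp2 are close copies whose reads may be shared. None of 12 class I antigen presentation genes was called, with a median of -0.47.

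Among the transferred libraries, Gbp11 resembled Oas2 in being higher with each inhibitor. It had 3.82 TMM CPM in MEP1+Metformin+Rapamycin, 2.24 in MEP1+Rapamycin, 3.15 in MEP1+Metformin, 1.13 in MEP1+CMC, 0.76 in No treatment and 7.59 in the naive library. Its log2 ratio over MEP1+CMC was 1.76 with both inhibitors (95% interval 1.36 to 2.18). The membrane protein gene Ifitm3 had 7.14 TMM CPM in MEP1+Metformin+Rapamycin, 13.4 in MEP1+Rapamycin, 7.44 in MEP1+Metformin, 11.3 in MEP1+CMC, 22.6 in No treatment and 16.8 in the naive library. Ifitm3 was highest in No treatment, the library with the highest macrophage marker sum, and their part in it was not tested. Oas1g had 1.74 TMM CPM in MEP1+Metformin+Rapamycin, 1.27 in MEP1+Rapamycin, 0.69 in MEP1+Metformin, 2.25 in MEP1+CMC, 2.19 in No treatment and 1.35 in the naive library. Its log2 ratio in MEP1+Metformin over MEP1+CMC was -1.70 (95% interval -2.28 to -1.15), at counts low enough that the reads of Oas1a may matter.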

How the data were processed

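RNA was sequenced from 6 libraries, 1 per condition, grouped by the submitters' treatment labels. The authors deposited raw read counts per gene over exons, without normalization, as their whole numbers show. Reads were handled with Trimmomatic 0.36, STAR 2.5.2b and Subread 1.5.2 (featureCounts) and the build is GRCm38, per the submitters' processing notes. Neither strandedness nor the handling of multi-mapping reads is given in the sources used here, so paralogs and overlapping genes are uncertain. Symbols came from GENCODE release M21, which named 48970 of 49315 identifiers. The response genes, their roles and the 7 pathway and 9 marker lists were chosen with earlier results of these data known.

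Counts were scaled by TMM over all genes (edgeR 4.0.16, R 4.3.3), and a gene needed 2 CPM and 10 counts in 1 library or more to be kept. For 11 pairs of libraries, TMM log2 ratios were given with exact 95% Clopper-Pearson intervals (Python 3.11.15, scipy 1.17.1). With 1 library per condition these pairs have no test. Across genes, 5 edgeR quasi-likelihood fits (glmQLFit, glmQLFTest, robust) were adjusted by Benjamini-Hochberg over all genes kept. They compared all transferred libraries with the naive library (4 residual degrees of freedom), the MEP1 libraries against No treatment (3), and the inhibitor libraries against MEP1+CMC and No treatment (3, added after seeing the data), and estimated rapamycin and metformin terms in the 4 MEP1 libraries (1). The spread in each fit holds treatment differences, and the p-values reflect no more than the spread among these libraries. A library alone on its side is taken to vary as the rest do. The SE was obtained from the log2 fold change and the F statistic. Scripts were tested on simulated data.

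Response genes called in a fit or passing the size rule among transferred libraries were given in all libraries, and of each pathway list at most 4 called genes by largest absolute log2 value were named, with Ifng, Ifngr1 and Ifnar1 always. Some genes of these lists are not reported here. Alternatives were library totals, DESeq2 1.42.0 size factors and Wald test, older quasi-likelihood settings, rRNA-like loci taken out, TMM over kept genes, no filter, a stricter filter (mean of at least 10 TMM CPM), a 1.5-fold threshold and each library left out.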

Additional observations from a re-analysis of the deposited data

How the results depend on the processing

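No paired analysis was possible because each condition has 1 library and the labels give no shared replicate numbers. Of 494 recomputed values over 59 results, 415 were labelled the same, 61 moved and 18 weaker. Counts and medians could only be labelled the same or moved, so the labels cannot show a reversal in them. Some medians changed sign with the scale, such as that of No treatment over naive, -0.38 with TMM and 0.040 with library totals. In transferred over naive cells, the median log2 fold change of the response genes minus that of all genes was -0.63 with library totals. With each library left out it ran from -0.70 to -0.54. How many response genes were called varied with the setting, as it did for all genes. Zbp1 (-0.51), Usp18 (-0.55), Bst2 (-0.57), Irf9 (-0.24), Igtp (-0.44), Xaf1 (-0.54), Trim25 (-0.23) and Rtp4 (-0.76) lost their call with library totals. Irf9 and Trim25 also lost it without a filter and without MEP1+CMC, MEP1+Metformin or MEP1+Metformin+Rapamycin, and Bst2 and Igtp without MEP1+Metformin+Rapamycin. For rapamycin, 2 fell under the stricter filter, and for the inhibitor libraries against those without, the DESeq2 Wald test found that 1 rose and 4 fell.

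With library totals, the median log2 ratio of the 40 genes over No treatment was 0.017 for MEP1+Metformin+Rapamycin, -0.053 for MEP1+Rapamycin, -0.074 for MEP1+Metformin and 0.077 for MEP1+CMC. Over MEP1+CMC it was -0.052 for MEP1+Metformin+Rapamycin, -0.034 for MEP1+Rapamycin and -0.071 for MEP1+Metformin, and for No treatment over naive it was 0.040. The counts on that scale were 0 lower in MEP1+Metformin over MEP1+CMC, 1 higher in MEP1+Metformin+Rapamycin over MEP1+CMC, 2 higher and 1 lower in MEP1+Metformin+Rapamycin, 0 lower in MEP1+Rapamycin and 0 lower in MEP1+Metformin over No treatment, 3 higher in No treatment over naive, and 6 above both libraries without inhibitor.

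With DESeq2 size factors, the median was -0.072 for MEP1+Rapamycin over MEP1+CMC, -0.15 for MEP1+Rapamycin over No treatment, -0.21 for MEP1+Metformin+Rapamycin over MEP1+Rapamycin and 0.13 for MEP1+Rapamycin over MEP1+Metformin. The counts lower over No treatment were 2 in MEP1+Metformin+Rapamycin (4.6% of all genes), 1 in MEP1+Rapamycin (5.3%) and 0 in MEP1+Metformin (4.7%). In MEP1+Rapamycin over MEP1+Metformin, 1 was higher (5.7% of all genes). With TMM over the kept genes, chosen after seeing the data, the same 4 medians were -0.035, -0.12, -0.22 and 0.15. The counts were 2 (4.5% of all genes), 0 (5.1%) and 0 (4.6%) lower over No treatment in the same order. In MEP1+Metformin+Rapamycin over MEP1+Rapamycin 1 was lower (4.3%), and in MEP1+Rapamycin over MEP1+Metformin 1 was higher (5.9%). The stricter filter, which drops Oas2 and Mx2, left 0 higher in all 3 inhibitor groups and in MEP1+CMC over No treatment. It also left 0 higher in MEP1+Rapamycin and MEP1+Metformin over MEP1+CMC. For these pairs the shares of all genes under that filter were not computed.

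At a 1.5-fold threshold the shares of all genes were not computed, so the counts cannot be read as particular to the response genes. There, the genes lower over MEP1+CMC were 9 in MEP1+Metformin+Rapamycin, where 1 was higher, 8 in MEP1+Rapamycin and 8 in MEP1+Metformin. Over No treatment they were 10 in MEP1+Metformin+Rapamycin, where 3 were higher, 10 in MEP1+Rapamycin, 11 in MEP1+Metformin, where 3 were higher, and 1 in MEP1+CMC. There were 2 lower in MEP1+Metformin+Rapamycin over MEP1+Metformin, 5 higher and 2 lower in MEP1+Metformin+Rapamycin over MEP1+Rapamycin, 4 higher and 2 lower in MEP1+Rapamycin over MEP1+Metformin, and 3 higher and 18 lower in No treatment over naive. The cause of the shifts with scale was not tested. The naive library is the shallowest, and counts under 300 limit Oas2 and Mx2.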
